A study of Rattus norvegicus with 12 samples.

Results

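Chemokine genes and Csf1 were followed in INS-1 cells, a rat insulinoma line that serves as a model of the β-cell. The 10 genes Cxcl1, Cxcl10, Cxcl11, Cxcl12, Cxcl16, Cx3cl1, Ccl1, Ccl2, Ccl20 and Csf1 were chosen by name, and all 10 were present among the 9694 genes of the deposited table. There were 12 RNA-Seq libraries in 4 groups of 3. CCIB cells received 500 nM I-BET762 (I-BET), an inhibitor that blocks the bromodomains of the BET proteins, over 48 h, and thereafter, with I-BET still present, a cocktail of TNF-α at 25 ng/mL, IL-1β at 10 ng/mL and IFN-γ at 100 ng/mL. CCVC cells received the vehicle in place of I-BET and the same cocktail, IB cells received I-BET at 500 nM without cytokines, and VC cells received vehicle without cytokines. The treatment protocol and the published description of the RNA-Seq give 8 h of cytokines, and the deposited design text gives 24 h at the end of 72 h. The cells are a single tumour-derived line, and nothing in the labels says whether the libraries of a group came from separate cultures, so p-values measure only the spread between these libraries, which may be technical.

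Chemokines are small secreted proteins that bind receptors on leucocytes and direct their movement along a gradient. β-cells exposed to inflammatory cytokines are a known source of chemokines, and many chemokine genes carry sites for NF-κB, which IL-1β and TNF-α activate, or respond to IFN-γ. Cxcl10 and Cxcl11 encode ligands of CXCR3 on activated T cells and natural killer cells, Cxcl1 a ligand of CXCR2 on neutrophils, Ccl2 a ligand of CCR2 on monocytes, Ccl20 the ligand of CCR6 and Ccl1 the ligand of CCR8. Cxcl16 and Cx3cl1 encode chemokines made as membrane proteins with a mucin-like stalk, which ADAM10 and ADAM17 can shed, and which bind CXCR6 and CX3CR1. Cxcl12 encodes a chemokine of resting tissue that binds CXCR4, and Csf1 encodes macrophage colony-stimulating factor, a growth factor of monocytes and macrophages.

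Levels are given as FPKM, a gene's fragments scaled to the size of the library and to the length of the gene. The table gives 1 mean FPKM per group, over its 3 libraries. Single libraries were recovered from these means where exactly 1 set of whole fragment counts was found to give them. Above 600 fragments in a group, only sets with every library within 2-fold of the group mean were searched. The spread behind the p-values is bounded by this limit. The 12 libraries held 20755777 to 24919589 fragments. Over 4999 genes, each library correlated at 0.978 or more with the others of its own group. With any library of another group it correlated at 0.934 or less, a description across genes. All were genes the authors had called different among the groups, so higher values within groups were bound to follow. With the search limit above, these values cannot show that no library stood apart. Library values were recovered in all 4 groups for Cxcl12, Cxcl16, Cx3cl1, Ccl1, Ccl2 and Ccl20, in CCVC, IB and VC for Cxcl1, in IB and VC for Cxcl11 and Csf1, and in no group for Cxcl10. Of 10 β-cell markers 8 were listed, with Ins1 at 20738 FPKM in CCIB, 10243 FPKM in CCVC, 26722 FPKM in IB and 11528 FPKM in VC. The markers differed in their pattern, with Mafa at 92.6, 55.3, 316 and 192 FPKM, Nkx6-1 at 8.09, 8.43, 31.8 and 34.3 FPKM and Slc2a2 at 207, 281, 435 and 251 FPKM in the same order. Of 16 leucocyte markers only Cd4 was listed, at 0.584 FPKM in CCIB, 1.74 FPKM in CCVC, 0.783 FPKM in IB and 1.73 FPKM in VC, and Ptprc, Cd68 and Itgam were not listed. Of 10 fibroblast and stellate markers 2 were listed, Thy1 at 95.5 FPKM in CCIB, 93.7 FPKM in CCVC, 152 FPKM in IB and 141 FPKM in VC and Pdgfra at 0.303 to 1.24 FPKM, while Col1a1 and Dcn were not listed. Of 7 endothelial markers Kdr, Tek and Vwf were listed, with a sum of 0.701 FPKM in CCIB, 0.5003 FPKM in CCVC, 1.74 FPKM in IB and 0.844 FPKM in VC. The part of these cell types in the results was not tested. The authors had kept only genes they called at an adjusted p under 0.05, so a gene that is not listed is not thereby absent from the cells.

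The 250 bases before the start of transcription are shown for the 4 genes of the set in which this window held the RelA κB consensus, the letters most often cited for NF-κB binding. They were taken from RefSeq (GRCr8) and run 5′ to 3′ on the strand of the gene, with matches to the motifs named after them in capitals. The window of Cxcl1 lies on the minus strand at chr14:17479322-17479571, that of Cxcl10 on the plus strand at chr14:15988816-15989065, that of Cxcl11 on the plus strand at chr14:15973478-15973727 and that of Ccl20 on the plus strand at chr9:91836909-91837158.
Cxcl1: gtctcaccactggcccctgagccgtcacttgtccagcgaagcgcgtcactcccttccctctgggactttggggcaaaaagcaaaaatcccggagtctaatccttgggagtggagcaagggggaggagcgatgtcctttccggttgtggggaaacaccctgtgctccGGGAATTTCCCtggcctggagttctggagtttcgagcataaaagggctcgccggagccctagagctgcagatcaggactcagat
Cxcl10: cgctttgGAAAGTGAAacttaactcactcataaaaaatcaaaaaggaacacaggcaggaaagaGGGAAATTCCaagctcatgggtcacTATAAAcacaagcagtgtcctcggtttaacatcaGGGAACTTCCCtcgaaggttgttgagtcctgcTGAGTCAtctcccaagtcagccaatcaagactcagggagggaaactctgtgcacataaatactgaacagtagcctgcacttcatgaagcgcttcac
Cxcl11: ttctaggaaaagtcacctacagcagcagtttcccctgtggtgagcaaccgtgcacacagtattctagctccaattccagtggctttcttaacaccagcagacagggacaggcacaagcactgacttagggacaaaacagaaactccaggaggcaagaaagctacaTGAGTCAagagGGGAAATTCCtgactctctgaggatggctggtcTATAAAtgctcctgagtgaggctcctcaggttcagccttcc
Ccl20: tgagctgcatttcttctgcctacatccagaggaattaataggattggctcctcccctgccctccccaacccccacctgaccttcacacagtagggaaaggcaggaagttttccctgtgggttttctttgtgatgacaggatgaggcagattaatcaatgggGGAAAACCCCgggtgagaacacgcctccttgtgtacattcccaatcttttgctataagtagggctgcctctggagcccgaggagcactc

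Promoter windows were held for 8 of the 10 genes, that is, for all but Ccl2 and Csf1. Both strands were searched, and motifs could overlap. The RelA κB consensus was found in 4 of these 8 windows and in 6.33% of all 33469 rat promoter windows of the same length. The stricter letters GGANTTTCC, which can overlap that consensus, were in 3 of the 8, Cxcl1, Cxcl10 and Cxcl11, and in 1.08% of all windows. In Cxcl10 the consensus stood 187 and 128 bases before the start, in Cxcl1 84 bases, in Cxcl11 74 bases and in Ccl20 89 bases before it. The core of the interferon-stimulated response element, GAAANNGAA, was found in Cxcl10, 243 bases before the start, and in 8.12% of all windows. The AP-1 letters TGANTCA were in Cxcl10 and Cxcl11 (6.34% of all windows), and the letters TATAAA were in Cxcl10, Cxcl11 and Cx3cl1 (12.9% of all windows). The windows of Cxcl12, Cxcl16 and Ccl1 held none of these letters. A match is a description of the sequence and not a measured binding site.

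**Figure D1:**
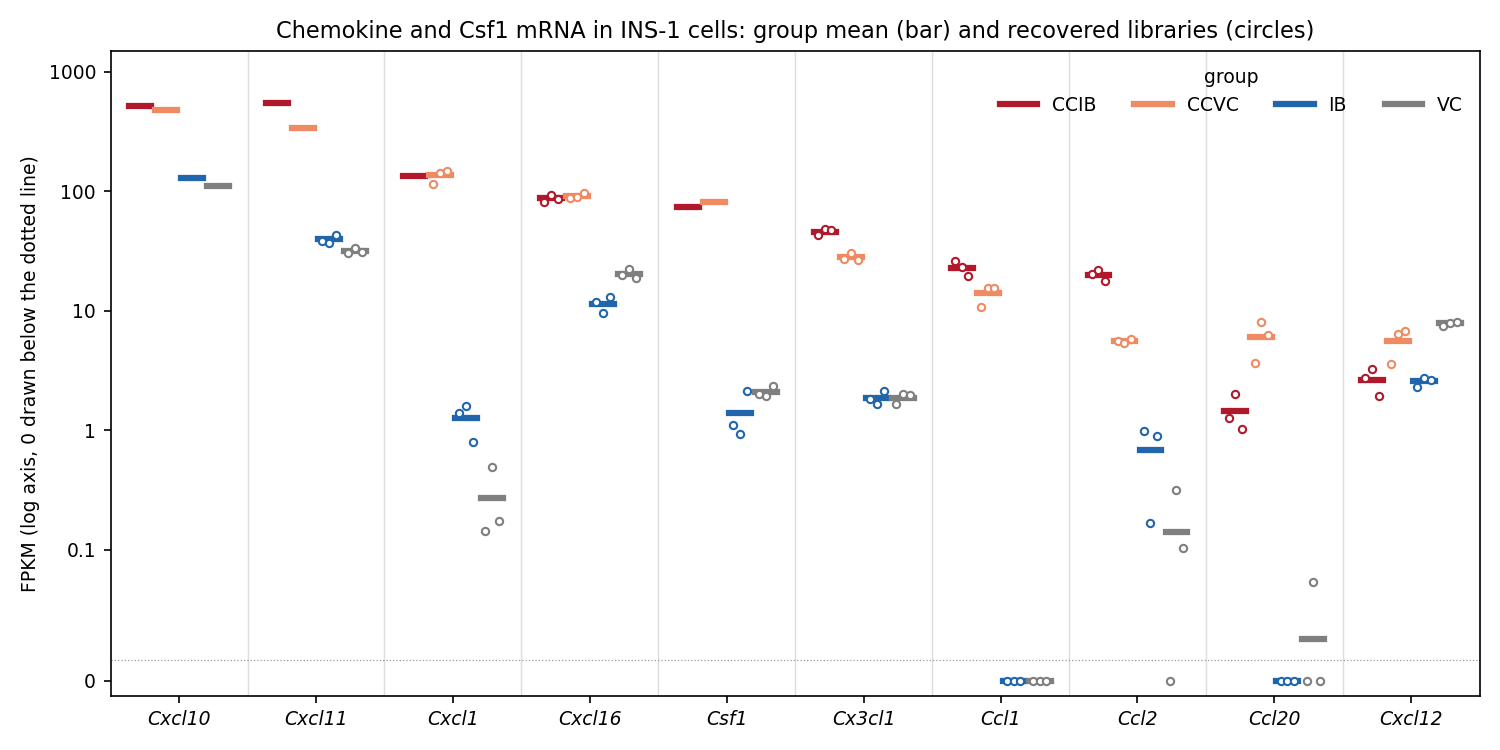
FPKM of the 10 genes on a log axis in CCIB, CCVC, IB and VC, with the group mean as a bar and each recovered library as an open circle (no circles where libraries were not recovered, and 0 drawn below the dotted line). Apart from Cxcl12, the bars of CCIB and CCVC lie above those of IB and VC for each gene, and those of CCIB range between 1.44 FPKM (Ccl20) and 552 FPKM (Cxcl11).

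With cytokines in vehicle-treated cells (CCVC against VC), 9 of the 10 genes were higher in CCVC by at least 1.5-fold and 0 were lower, with Cxcl12 as the exception. Over all 8795 genes that averaged 1 FPKM or more, 13.9% were higher by this measure and 10.2% were lower, and the median log2 ratio was 3.06 over the 10 genes and -0.01 over all genes. Log2 ratios of group means were taken after adding 1 FPKM and carry no test. Cxcl1, Ccl1, Ccl2 and Ccl20 were below 1 FPKM in VC and entered the 8795 genes only through the cytokine groups, so that their place among the higher genes was bound to follow. In bulk RNA, a change in the number of expressing cells and in the RNA per cell cannot be told apart. Where libraries were recovered, limma was run on log2(FPKM + 1) over all genes recovered in both groups, and p-values were adjusted by Benjamini-Hochberg. All limma differences are on this scale, which understates the fold change of genes at a low level. All 7 of the genes that could be tested passed an adjusted p of 0.05, 6 higher and 1 lower in CCVC, beside 61.0% of the 5070 genes tested. The table holds only genes the authors had called, so these p-values are lenient.

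Among the CXCR3 ligands, Cxcl10 and Cxcl11 were the most abundant of the set in every group. Cxcl10 (chromosome 14, 17126851 to 17129068 in the deposited coordinates, whose build is not named) was at 518 FPKM in CCIB, 481 FPKM in CCVC, 130.35 FPKM in IB and 111 FPKM in VC, which places it among the higher genes also without cytokines, above 92.6% of listed genes in VC. Its mean in CCVC was 4.33-fold that in VC, from about 39900 fragments in CCVC and 9194 fragments in VC over the 3 libraries, and the spread between libraries is not known for it. Cxcl11, which lies 12.5 kb from Cxcl10, was at 552 FPKM in CCIB, 339 FPKM in CCVC, 39.6 FPKM in IB and 31.6 FPKM in VC. Its mean in CCVC was 10.7-fold that in VC. The mean of Cxcl10 was thus above that of Cxcl11 in CCVC, IB and VC. In CCIB Cxcl11 had the higher mean, at 552 against 518 FPKM. The libraries of neither gene were recovered in CCIB, so that their order there is not set. The pair made up 73.4% of the summed FPKM of the 10 genes in CCIB, 69.0% in CCVC, 89.8% in IB and 81.4% in VC.

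Cxcl1, the neutrophil chemokine, had the largest log2 ratio of all 8795 genes in CCVC against VC. In the 3 CCVC libraries it was at 115, 143 and 149 FPKM, against 0.143, 0.490 and 0.174 FPKM in the VC libraries. The VC values rest on 3, 11 and 4 fragments, so the VC mean itself is loosely set, while the groups were far apart. The ratio of the 2 means was 504-fold, and limma gave a difference of 6.75 ± 0.13 on the log2(FPKM + 1) scale (SE, adjusted p = 1.50e-10), which understates the change of so low a gene. Cxcl1 lies on chromosome 14 (18653039 to 18654811), 1524 kb from Cxcl10.

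Csf1 was among the genes that differed most as well, at rank 5 of the 8795 genes by log2 ratio. It was at 81.3 FPKM in CCVC as a group mean, and at 2.00, 1.93 and 2.35 FPKM in the 3 VC libraries. The mean in CCVC was 38.8-fold the VC mean of 2.09 FPKM. The CCVC libraries of Csf1 could not be recovered, and no test was run for it.

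The membrane-bound chemokines were both higher with cytokines. Cx3cl1 was at 27.2, 30.6 and 26.8 FPKM in CCVC libraries, against 1.66, 1.99 and 1.98 FPKM in VC libraries, a rise of 3.34 ± 0.11 (log2, SE, limma adjusted p = 3.57e-09). Cxcl16 was at 87.1, 89.9 and 97.3 FPKM in CCVC libraries, against 19.8, 22.2 and 18.8 FPKM in VC libraries, a rise of 2.12 ± 0.10 (adjusted p = 4.44e-08). Each CCVC library of both genes lay above each VC library. Cxcl16 thus had a clear level without cytokines, as Cxcl10 and Cxcl11 did, while Cx3cl1 stayed near 2 FPKM.

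The CC chemokines of the set, Ccl1, Ccl2 and Ccl20, were close to or at 0 without cytokines. Ccl1 was at 10.7, 15.6 and 15.6 FPKM in CCVC libraries (457 fragments in all), and no fragment was counted in any of the VC libraries. Set against 3 fragments over the group, the limit that a count of 0 allows, Ccl1 was at least 151-fold higher in CCVC (limma adjusted p = 1.47e-08). Ccl2, the monocyte chemokine, was at 5.57, 5.37 and 5.76 FPKM in CCVC libraries, against 0, 0.318 and 0.103 FPKM in VC libraries. Its ratio of means was 39.7-fold, with 8 fragments in VC. The limma rise of 2.54 ± 0.15 on the log2(FPKM + 1) scale (SE, adjusted p = 2.12e-07) understates this. Both genes lie on chromosome 10, 120 kb apart (Ccl1 at 69169282 to 69172142 and Ccl2 at 69047091 to 69048889), and both were higher in each CCVC library than in any VC library. Ccl20 was at 3.64, 8.05 and 6.33 FPKM in CCVC libraries, against 0, 0.0533 and 0 FPKM in VC libraries, where the only value above 0 is a single fragment. The ratio of the means was 338-fold with a 95% counting interval of 60.2 to 13374, and the difference passed the limma test (adjusted p = 2.22e-06). Intervals and limits of this kind cover counting error only.

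Cxcl12 went the other way. It was at 3.56, 6.45 and 6.74 FPKM in CCVC libraries, against 7.49, 7.91 and 8.10 FPKM in VC libraries, and the groups did not overlap. The fall of 0.46 ± 0.18 passed the limma test (log2, SE, adjusted p = 0.0436), short of 1.5-fold. The call did not hold without CCVC library 1, the lowest (adjusted p = 0.136), nor without VC library 1 (0.0622), VC library 2 (0.0885) or VC library 3 (0.110).

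**Figure D2:**
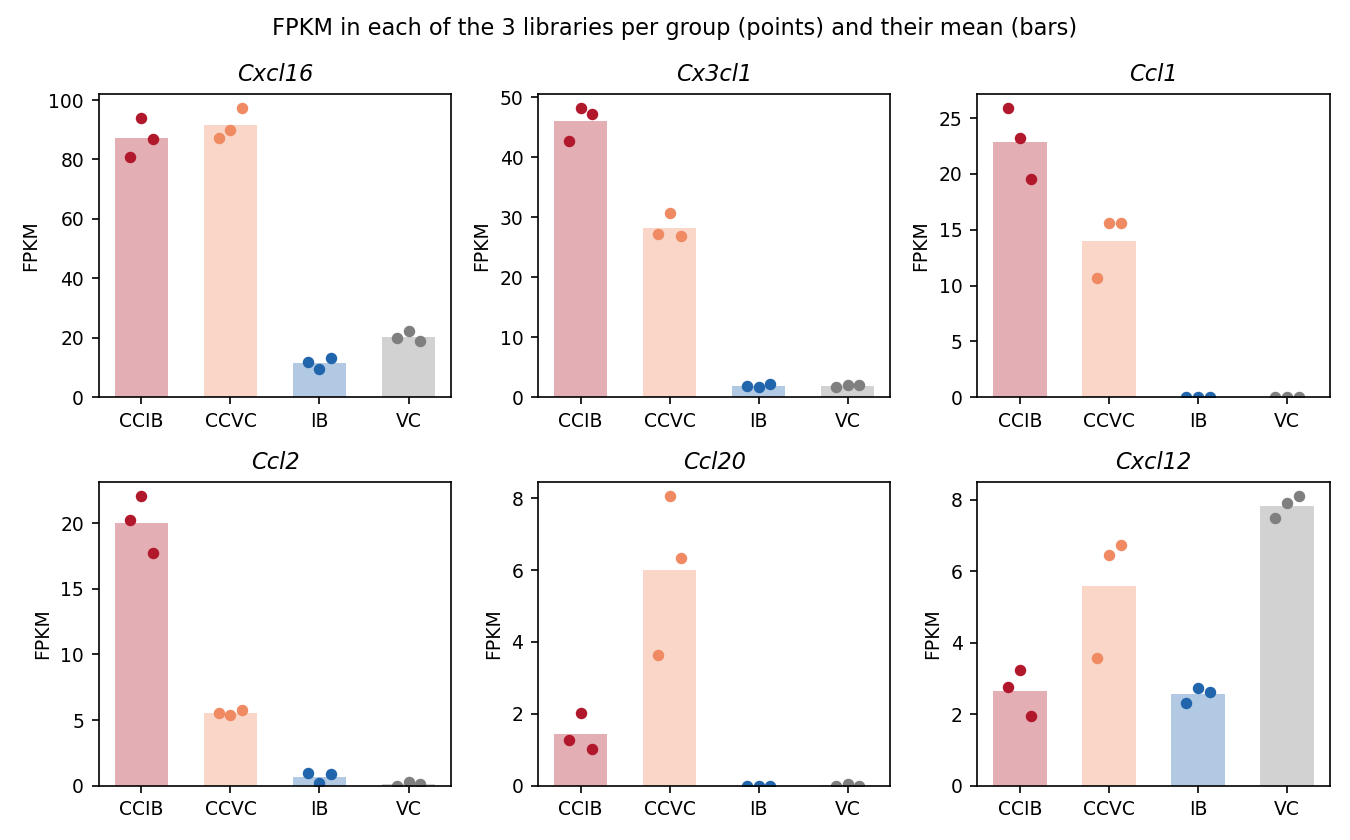
FPKM in each of the 3 libraries of CCIB, CCVC, IB and VC (points) and their mean (bars, from 0) for the 6 genes recovered in every group. The Ccl2 and Cx3cl1 libraries of CCIB lie above all those of CCVC, the Ccl20 libraries of CCIB lie below them, and the Cxcl16 libraries of CCIB and CCVC overlap.

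The second comparison asked what I-BET did in cells without cytokines (IB against VC). Only Cxcl1 was 1.5-fold or more higher in IB and 2 genes were lower, Cxcl12 and Cxcl16, where 4.96% of all genes were higher and 10.5% were lower. The median log2 ratio of the 10 genes was 0.00, and that of all genes was -0.04. Of 8 genes that limma could test, 4 passed, beside 43.4% of 5082 genes. Ccl1 had no fragment in any library of IB or VC and was not tested.

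Cxcl12 was at 2.32, 2.74 and 2.63 FPKM in IB libraries, against 7.49, 7.91 and 8.10 FPKM in VC libraries. The groups were well apart, and the fall of 1.31 ± 0.11 had an adjusted p of 3.55e-05 in limma (log2, SE). Cxcl16 was at 11.7, 9.58 and 13.1 FPKM in IB libraries, against 19.8, 22.2 and 18.8 FPKM in VC libraries, a fall of 0.78 ± 0.12 (adjusted p = 0.00101). Both of these genes, a CXCR4 ligand and a membrane-bound CXCR6 ligand, were therefore lower with I-BET in each of 3 libraries.

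Cxcl1 was at 1.40, 1.60 and 0.801 FPKM in IB libraries, against 0.143, 0.490 and 0.174 FPKM in VC libraries. It rose by 0.83 ± 0.18 on the log2(FPKM + 1) scale (SE, limma adjusted p = 0.00427), at a level far below that with cytokines. The ratio of the Cxcl1 means was 4.71, with 18 fragments in VC, and the 1 FPKM added makes the rise look smaller. Cxcl11 was at 38.7, 36.7 and 43.4 FPKM in IB libraries, against 30.5, 33.4 and 30.9 FPKM in VC libraries, and its rise of 0.31 ± 0.10 passed the test narrowly (adjusted p = 0.0283). The Cxcl11 call did not hold without IB library 3 (adjusted p = 0.0919), VC library 1 (0.0748) or VC library 3 (0.0880). Cxcl10, the neighbour of Cxcl11, had a ratio of 1.17 between the means of IB and VC, with no test.

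The remaining genes did not pass the test. Ccl2 was at 0.988, 0.168 and 0.898 FPKM in IB libraries, against 0, 0.318 and 0.103 FPKM in VC libraries (adjusted p = 0.0625, and 0.00606 without IB library 2, the low one), and the groups overlapped. With 0.1 FPKM added in place of 1 FPKM, its log2 ratio of means was 1.71, past 1.5-fold. Csf1 was at 1.10, 0.926 and 2.14 FPKM in IB libraries, against 2.00, 1.93 and 2.35 FPKM in VC libraries (adjusted p = 0.0956, and 0.0109 without IB library 3, the high one). In each of these genes a single IB library lay apart from the other 2. Cx3cl1 was at 1.84, 1.66 and 2.12 FPKM in IB libraries, against 1.66, 1.99 and 1.98 FPKM in VC libraries (adjusted p = 0.993), a difference of 0.00 ± 0.13 on the log2 scale (SE). Ccl20 had no fragment in IB libraries and 1 fragment in VC libraries.

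The third comparison asked what I-BET did to chemokine mRNA in cells that received cytokines (CCIB against CCVC), and here the genes parted. Cxcl11, Cx3cl1, Ccl1 and Ccl2 were 1.5-fold or more higher in CCIB, Cxcl12 and Ccl20 were lower, and Cxcl1, Cxcl10, Cxcl16 and Csf1 were neither. Over all genes 3.40% were higher and 11.6% were lower, and the median log2 ratio was 0.04 for the 10 genes and -0.07 for all genes. Of 6 genes that limma could test, 5 passed, 3 higher and 2 lower in CCIB, beside 46.9% of 5085 genes. All 5 of these calls held with each of the CCIB and CCVC libraries left out in turn.

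Ccl2 had the largest rise. It was at 20.3, 22.0 and 17.7 FPKM in CCIB libraries, against 5.57, 5.37 and 5.76 FPKM in CCVC libraries, and the groups were far apart. The ratio of the means was 3.59-fold, rank 10 among the 8795 genes by log2 ratio, and limma gave 1.67 ± 0.10 (log2, SE, adjusted p = 3.80e-06). Cx3cl1 was at 42.7, 48.2 and 47.2 FPKM in CCIB libraries, against 27.2, 30.6 and 26.8 FPKM in CCVC libraries, a rise of 0.69 ± 0.09 (adjusted p = 0.000292). Ccl1 was at 25.9, 23.2 and 19.5 FPKM in CCIB libraries, against 10.7, 15.6 and 15.6 FPKM in CCVC libraries, a rise of 0.68 ± 0.15 (adjusted p = 0.00413). For both genes the lowest CCIB library lay above the highest CCVC library. Cxcl11 had a ratio of 1.63 between the means of CCIB and CCVC, close to the 1.63 of Cx3cl1 and the 1.64 of Ccl1, but its libraries in these groups were not recovered and it carries no test.

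Ccl20 moved the opposite way to Ccl1 and Ccl2, the other CC chemokines of the set. It was at 1.26, 2.01 and 1.03 FPKM in CCIB libraries, against 3.64, 8.05 and 6.33 FPKM in CCVC libraries, and fell by 1.49 ± 0.23 (log2, SE, limma adjusted p = 0.000668). These values rest on 22, 37 and 19 fragments in CCIB and on 63, 153 and 122 fragments in CCVC, with no overlap of the groups. Cxcl12 was at 2.76, 3.24 and 1.95 FPKM in CCIB libraries, against 3.56, 6.45 and 6.74 FPKM in CCVC libraries, and fell by 0.83 ± 0.21 (adjusted p = 0.00876). The lowest CCVC library of Cxcl12 was only a little above the highest CCIB library, and without it the fall was 1.07 (adjusted p = 0.00161). With 1 FPKM added, Cxcl12 was the only gene of the set past 1.5-fold in the same direction with I-BET with and without cytokines, and with 0.1 FPKM added or with median centring Ccl2 was too, higher in both states.

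The other 4 genes were near their CCVC level. Cxcl16 was at 80.7, 93.8 and 86.8 FPKM in CCIB libraries, against 87.1, 89.9 and 97.3 FPKM in CCVC libraries, and the groups overlapped (difference -0.07 ± 0.11, log2, SE, adjusted p = 0.631). Cxcl1 had means of 133 FPKM in CCIB and 136 FPKM in CCVC, Csf1 had 74.0 and 81.3 FPKM, and Cxcl10 had 518 and 481 FPKM in the same order. For these 3 the largest log2 ratio in size was -0.13, that of Csf1. Their CCIB libraries were not recovered, and no interval of the difference can be given for them.

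**Figure D3:**
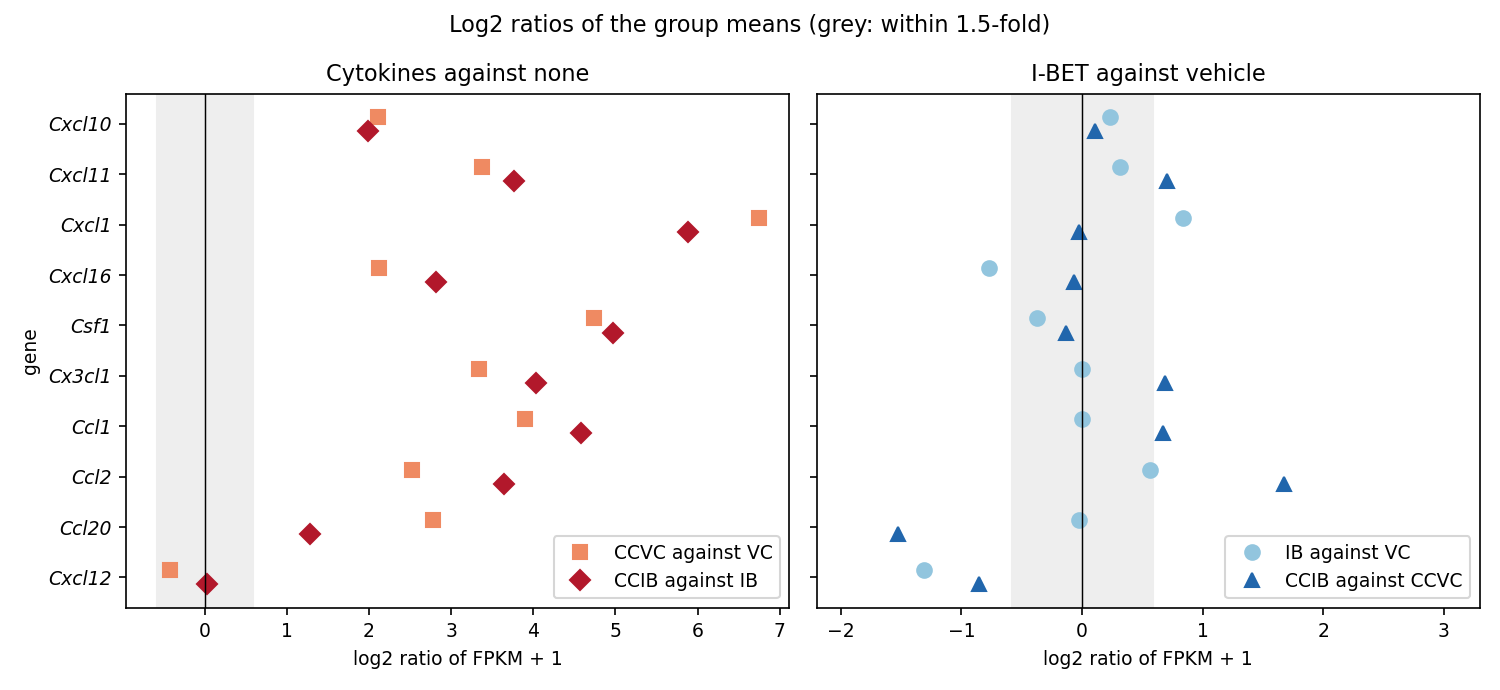
Log2 ratios of group means (FPKM + 1) for the 10 genes, cytokines against none on the left and I-BET against vehicle on the right, with the band within 1.5-fold in grey. On the left 9 genes lie right of the band in both comparisons and Cxcl12 lies inside it, and on the right Ccl2 and Ccl20 lie farthest apart with cytokines (1.68 and -1.52), while ratios of Ccl1 and Ccl20 against groups at or near 0 depend on the 1 FPKM added.

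The same cocktail in I-BET-treated cells (CCIB against IB) gave 9 genes higher and 0 lower, again all but Cxcl12, where 12.9% of all genes were higher and 12.9% lower. Ccl1, Ccl2 and Ccl20 were below 1 FPKM in IB and entered only through the cytokine groups, so that their being higher was bound to follow. Of 6 genes tested in limma 5 passed, all higher in CCIB, beside 61.4% of 5082 genes. Cxcl1 again had the largest log2 ratio of all genes, at 133 FPKM in CCIB and 1.27 FPKM in IB. Ccl1 was at least 234-fold higher and Ccl20 at least 25.2-fold higher in CCIB, each set against the limit of 3 fragments over the IB libraries, in which none was counted. Csf1 was at 74.0 FPKM in CCIB and 1.39 FPKM in IB, and Cxcl16 at 87.1 FPKM in CCIB and 11.5 FPKM in IB. Cxcl12 was at 2.65 FPKM in CCIB and 2.56 FPKM in IB, with overlapping libraries (limma adjusted p = 0.912).

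Set against each other on the linear scale, the increase in FPKM with cytokines in I-BET cells was 97.5% of that in vehicle cells for Cxcl1, 91.6% for Csf1, 104.8% for Cxcl10 and 106% for Cxcl16. By group means these 4 genes therefore had nearly the same linear increase in both states, with no interval for Cxcl1, Csf1 and Cxcl10. As ratios of means, Cxcl16 was 7.59-fold higher with I-BET (CCIB to IB) and 4.51-fold higher without it (CCVC to VC). In the same order, Cxcl1 had 105-fold and 504-fold, Csf1 53.4-fold and 38.8-fold, and Cxcl10 3.98-fold and 4.33-fold. For the other genes the linear increase was 167% for Cxcl11, 168% for Cx3cl1, 164% for Ccl1 and 356% for Ccl2, and 24.0% for Ccl20. Summed over the 10 genes, the level was 1458 FPKM in CCIB and 1188 FPKM in CCVC, against 189 FPKM in IB and 175 FPKM in VC, and Cxcl11 alone made up most of the difference between CCIB and CCVC.

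**Figure D4:**
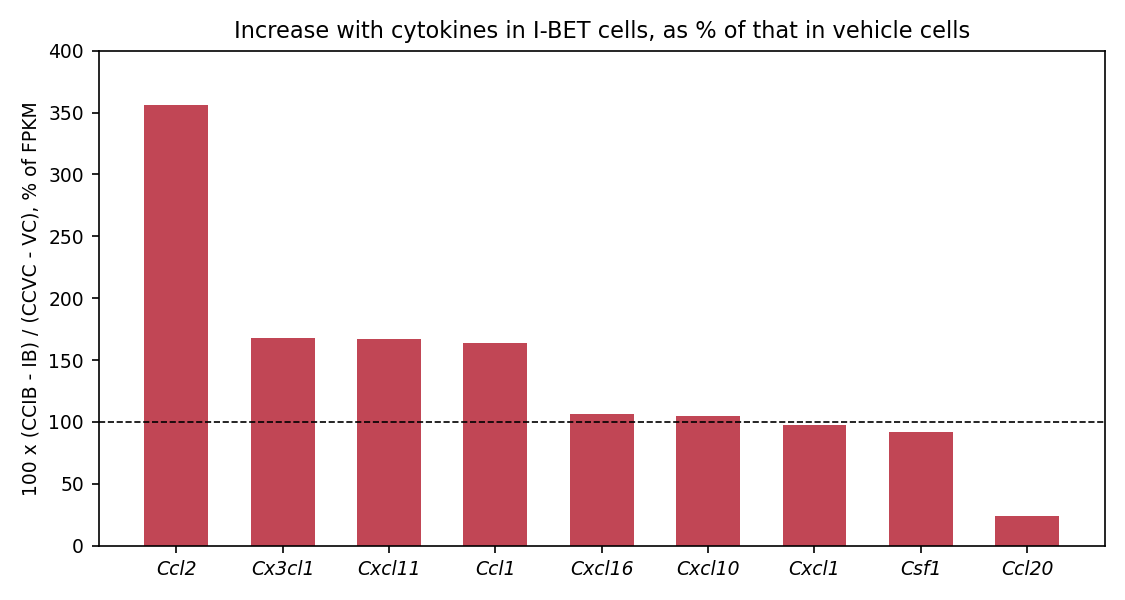
Increase in FPKM with cytokines in I-BET cells (CCIB minus IB) as a percent of that in vehicle cells (CCVC minus VC), as bars from 0 for the 9 genes higher with cytokines, with 100% dashed. Ccl2 stands at 356%, Ccl20 at 24.0%, and Cxcl1, Cxcl10, Cxcl16 and Csf1 lie between 91.6% and 106%.

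Whether the I-BET ratio itself differed with cytokines was taken as the CCIB to CCVC log2 ratio minus the IB to VC log2 ratio. It differed by 1.5-fold or more for 6 of the 10 genes, higher for Cxcl16, Cx3cl1, Ccl1 and Ccl2 and lower for Cxcl1 and Ccl20, beside 4.86% of all genes in either direction. Ccl1 had no fragment in IB or VC and Ccl20 had 1 in all, so for these genes the ratio without cytokines is set near 0 by the 1 FPKM added, and the difference restates CCIB against CCVC and says nothing of a ratio without cytokines. That leaves Cxcl16, Cx3cl1, Ccl2 and Cxcl1, and of these the values of Ccl2 and Cxcl1 depend on the 1 FPKM added. For Cxcl1 the difference was -0.86 with 1 FPKM added and -1.92 with 0.1 FPKM added, lower in both. The Ccl2 ratio of means was 4.88 for IB to VC and 3.59 for CCIB to CCVC. Without that addition it was thus the larger one without cytokines. As an interaction term in limma, 4 of 6 genes tested passed, beside 1.58% of 5055 genes. The terms were 0.71 ± 0.16 for Cxcl16 (log2, SE, adjusted p = 0.0392), 0.69 ± 0.14 for Cx3cl1 (0.0263), 1.14 ± 0.25 for Ccl2 (0.0386) and -1.47 ± 0.29 for Ccl20 (0.0263), and those of Ccl1 (0.68 ± 0.20, 0.105) and Cxcl12 (0.48 ± 0.25, 0.369) did not pass. The terms of Ccl20 and Ccl1 are void as a difference between states, since their ratio without cytokines is set by the 1 FPKM added. For Cxcl16 the term combined a fall without cytokines and overlapping libraries with them, whereas for Cx3cl1 it combined overlapping libraries without cytokines and a rise with them.

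The interaction calls were not firm. With 1 of the 12 libraries left out in turn, 0 to 3 of the 4 held. Cx3cl1 lost its call without CCIB library 2 or 3, CCVC library 1 or 3, IB library 2, or VC library 2 or 3 (adjusted p = 0.0502 to 0.0760 in limma). Ccl20 lost it without CCIB library 1 or 3, CCVC library 3, IB library 3, or VC library 1 or 3 (0.0510 to 0.0688). Ccl2 lost it without any of the CCIB or CCVC libraries, or VC library 2 or 3 (0.0662 to 0.0959), and Cxcl16 without CCIB library 2 or 3 or any library of the other groups but IB library 3 (0.0592 to 0.104). The sign of each term stayed the same in all of these fits. With 0.1 FPKM added in place of 1 FPKM, the term of Ccl2 was 0.12 (adjusted p = 0.952), and its ratio without cytokines rests on 36 fragments in IB and 8 fragments in VC. Cx3cl1 (0.0528) and Ccl20 (0.160) also lost their calls with 0.1 FPKM added.

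**Figure D5:**
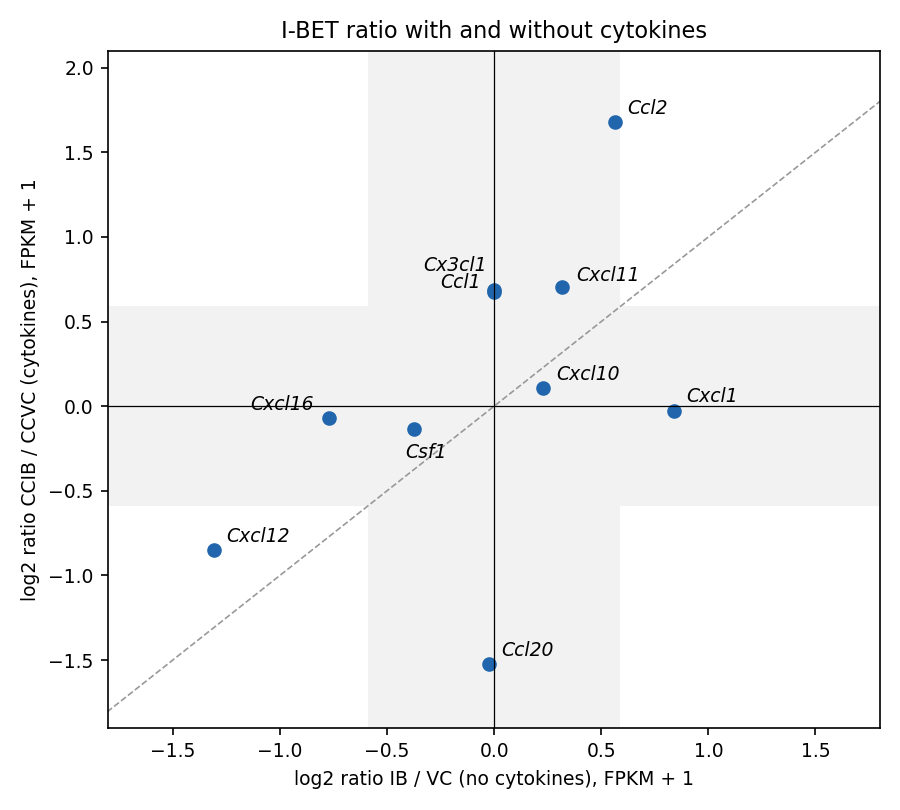
Log2 ratio of CCIB to CCVC (vertical) against that of IB to VC (horizontal) for the 10 genes, with bands within 1.5-fold in grey and equal ratios on the dashed line. Ccl2 lies farthest above the line, a place that depends on the 1 FPKM added, Ccl20 lies farthest below it, and Cxcl12 lies low on both axes.

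The order of the levels differed between groups. By group mean, Cxcl1 stood at place 7 in IB and VC and at place 3 in CCIB and CCVC. Cxcl12 stood at place 4 in IB and VC and at place 9 in CCIB. Cxcl10 and Cxcl11 were first and second in CCVC, IB and VC, and Cxcl1, Cxcl16, Csf1 and Cx3cl1 followed in that order in CCIB and in CCVC. In CCVC the neighbours Ccl20, Cxcl12 and Ccl2 had means of 6.005, 5.58 and 5.57 FPKM and overlapping libraries, so that their order there is not set. In CCIB Ccl2 stood at 20.0 FPKM, apart from Cxcl12 at 2.65 FPKM and Ccl20 at 1.44 FPKM, and Ccl1 at 22.9 FPKM overlapped with Ccl2. In VC the libraries of Csf1 and Cx3cl1 overlapped, at means of 2.09 and 1.88 FPKM.

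Several of the genes have relatives or listed genes beside them. Cxcl2 and Cxcl3, paralogues of Cxcl1 that also bind CXCR2, lie 10.7 kb and 74.5 kb from it. Cxcl2 was at 20.6 FPKM in CCIB, 11.996 FPKM in CCVC, 0.118 FPKM in IB and 0.172 FPKM in VC, and Cxcl3 at 18.8, 14.2, 0.122 and 0.119 FPKM in the same order. Cxcl1 was thus far above both with cytokines, and unlike Cxcl1, Cxcl2 was 1.5-fold higher in CCIB than in CCVC (log2 ratio 0.73). Fragments shared by such close paralogues may be divided between them, and how they were assigned is not given in the sources used here. Ccl7, which binds CCR2 like Ccl2 and lies 9.22 kb from it, was at 0.656 FPKM in CCIB, 0.322 FPKM in CCVC, 0.0199 FPKM in IB and 0 FPKM in VC, below the filter. Med11, 0.883 kb from Cxcl16, was at 24.5 FPKM in CCIB, 16.5 FPKM in CCVC, 40.5 FPKM in IB and 25.2 FPKM in VC, so that its ratio of IB to VC was above 1 where that of Cxcl16 was below 1. Nup54 and Sdad1, on the far sides of Cxcl11 and Cxcl10, and Ciapin1 and Pllp, beside Cx3cl1, stayed within 1.5-fold of VC in CCVC. Agfg1, beside Ccl20, had a log2 ratio of -0.11 in CCVC against VC, while Sphkap, on the other side of Ccl20, had -0.98. Slc6a17 and Gstm7, beside Csf1, had -0.62 and -0.42. Rassf4, 454 kb from Cxcl12, was at 1.93 FPKM in CCIB, 4.27 FPKM in CCVC, 0 FPKM in IB and 0.02 FPKM in VC.

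The genes of most similar pattern were found by the distance between their log2 ratios to VC in IB, CCVC and CCIB, over 4 group means and 8118 genes with a symbol, as a description that says nothing of shared function. For genes low in VC these distances depend on the 1 FPKM added, so near genes can differ widely in fold. In VC, for example, Cx3cl1 was at 1.88 FPKM and its near gene NOS2 at 0.0342 FPKM. Nearest to Cxcl10 were Trib2 at a distance of 0.17 log2 units, Nr1d1 at 0.25 and Sgk1 at 0.26. Nearest to Cxcl11 were Tnf at 0.30, Cx3cl1 at 0.32 and Pik3r5 at 0.33. For Cx3cl1 they were Pik3r5, Cxcl2 and a row named NOS2, each at 0.23, and for Ccl1 they were a second row named Nos2, which encodes inducible nitric oxide synthase, at 0.42, then Cxcl3 at 0.45 and Micall2 at 0.46. Cxcl16 had Lgals5 and Tmem140 at 0.33 and the interferon-induced gene Mx2 at 0.41. Cxcl12 had Garnl3 at 0.12, Cpne9 at 0.14 and Acsl6 at 0.18. Less close were the genes found for Csf1, with Cd69 at 0.48, Zc3h12a at 0.51 and Kcnq3 at 0.71, for Ccl2, with Akap2 at 0.55, Kcnn3 at 0.70 and Lcn2 at 0.71, and for Ccl20, with Gpr139 at 0.42, Rassf4 at 0.49 and INF2 at 0.51. No gene was near Cxcl1, for which Icam1 at 2.33, Kcnq3 at 2.50 and Cd69 at 3.13 came first.

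Other genes of the pathway were taken from lists drawn up by function, and counted at 1.5-fold. Over all genes, 13.9% were higher and 10.2% lower in CCVC against VC by this measure. In CCIB against CCVC 3.40% of all genes were higher and 11.6% lower. Of 28 other chemokine ligands 4 were listed and 3 passed the filter, Ccl5, Cxcl2 and Cxcl3, all higher in CCVC than in VC. Cxcl9, the third CXCR3 ligand, was not listed. Cxcl2 and Cxcl3 were below 1 FPKM in VC and IB and passed only through the cytokine groups. Their being higher was thus bound to follow. Ccl5 was at 25.3 FPKM in CCIB, 23.3 FPKM in CCVC, 11.6 FPKM in IB and 11.1 FPKM in VC. Of 24 receptors of chemokines and Csf1, among them Cxcr4, Ackr3 and Csf1r, 0 were listed. Of 22 other colony-stimulating factors and secreted cytokines 6 passed the filter, 5 higher and 0 lower in CCVC against VC, with a median log2 ratio of 1.47. Among the 5, Tnf and Il23a were below 1 FPKM in VC and passed only through the cytokine groups. For them, too, being higher was bound to follow. In CCIB against CCVC 1 of these 6 was higher and 2 were lower. Lif, a cytokine of the IL-6 family, was at 53.7 FPKM in CCIB, 30.8 FPKM in CCVC, 4.16 FPKM in IB and 4.91 FPKM in VC, and Tnf at 22.1, 14.9, 1.23 and 0.483 FPKM in the same order. The lower ones were the death ligand gene Tnfsf10, at 6.42 FPKM in CCIB and 20.6 FPKM in CCVC, and Mif, at 115 FPKM in CCIB and 195 FPKM in CCVC, while Il23a, at 3.61 FPKM in CCIB and 5.04 FPKM in CCVC, was neither.

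Of 13 adhesion molecules that leucocytes bind 7 passed the filter, of which 5 were higher in CCVC against VC and 2 were higher in CCIB against CCVC. Icam1 was at 144 FPKM in CCIB, 108 FPKM in CCVC, 2.91 FPKM in IB and 2.47 FPKM in VC, and F11r and Alcam were also higher with cytokines (log2 ratios of 1.15 for each in CCVC against VC). Icam5 was higher in CCIB than in CCVC, at 4.43 and 1.72 FPKM. Of 24 transcription factors and inhibitors upstream of chemokine genes that passed the filter, 16 were higher and 1 was lower in CCVC against VC, with a median log2 ratio of 1.03. With I-BET in cytokine-treated cells 1 of these 24 was higher, 0 were lower and the median was 0.11. Among the inhibitors of NF-κB, Tnfaip3 was at 43.2 FPKM in CCIB, 48.5 FPKM in CCVC, 4.33 FPKM in IB and 4.49 FPKM in VC. Nfkb2 was at 177, 152, 20.0 and 20.3 FPKM in the same order, Cebpd at 20.2, 25.2, 1.97 and 2.72 FPKM, and Nfkbiz at 13.9, 13.6, 3.43 and 1.74 FPKM. In each of these 4 regulators the means of CCIB and CCVC were within 1.5-fold of each other.

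Of 12 receptors and adaptors of the 3 cytokines that passed the filter 6 were higher and 1 was lower in CCVC against VC, and 1 was higher and 1 lower in CCIB against CCVC. Jak2, Ifngr2 and Traf2 had log2 ratios of 1.00, 0.85 and 0.86 in CCVC against VC. Myd88, the adaptor of the IL-1 receptor, was at 2.18 FPKM in CCIB, 5.45 FPKM in CCVC, 4.20 FPKM in IB and 8.39 FPKM in VC. Of 10 proteins that control the decay of chemokine mRNA 1 was higher in CCVC against VC, Zc3h12a, which encodes the RNase Regnase-1, at 40.2 FPKM in CCIB, 45.5 FPKM in CCVC, 1.04 FPKM in IB and 1.03 FPKM in VC. Arid5a, which stabilizes inflammatory mRNA, was higher in CCIB than in CCVC, at 4.75 and 2.59 FPKM. Of 12 proteases and proteoglycans that shed or bind chemokines, 2 were higher and 1 was lower in CCVC against VC, and 1 was higher and 2 were lower in CCIB against CCVC. The heparan sulphate proteoglycan gene Sdc4 was at 198 FPKM in CCIB, 76.8 FPKM in CCVC, 46.1 FPKM in IB and 25.4 FPKM in VC, while Sdc1 and Sdc3 were at 17.8 and 16.0 FPKM in CCIB and at 31.5 and 33.1 FPKM in CCVC. Ext1, which extends the heparan sulphate chain, had a log2 ratio of 0.81 in CCVC against VC, and Adam10 and Adam17, the sheddases of Cx3cl1 and Cxcl16, had ratios of -0.70 and 0.30. Over all genes, 13.9% were higher and 10.2% lower in CCVC against VC, and 3.40% higher and 11.6% lower in CCIB against CCVC. In CCVC against VC, the counts of the decay list and of the protease and proteoglycan list lay near these shares. They are not read as results about those lists, and no list was tested.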

How the data were processed

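RNA of INS-1 cells was sequenced by the authors, who mapped the reads by HISAT2 and derived FPKM per gene, while DESeq2 is named in the submitters' processing notes, both without versions. They deposited FPKM values as 1 mean per group for 9694 genes, with gene lengths and coordinates, and the build is not given in the sources used here. Log2 ratios were taken after adding 1 FPKM, over 8795 genes that averaged 1 FPKM or more (899 left out), and genes were counted at 1.5-fold.

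The means carry 12 digits, so library sizes were solved from genes with 1 fragment in a group, and whole fragment counts were then solved per gene. A gene was used in a group where the solution was unique. Above 600 fragments in a group, sets with a library more than 2-fold from the group mean were not searched. The length fitted for 5895 genes (60.8%), of which 5835 were solved in all 4 groups. Each solved set returned the deposited mean. Cxcl12 fitted a length of 1143 bases in place of the 1938 listed, which was found by search. Libraries are numbered by size within a group, not by the labels' replicate. The recovery and the limma tests (trend and empirical Bayes, each comparison fitted on its own groups) were added after the values were seen, and were tested on simulated data. Beyond counting error, the simulated libraries had a small spread that was fixed beforehand and not taken from the data. A library beyond the 2-fold search limit was thus not put to the test. A single gene at 3 against 3 cannot go below p = 0.10 in an exact permutation test.

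Genes, lists and the rule for named genes (up to 4 per list with the largest ratio, 3 nearest patterns, nearest listed gene within 500 kb each side) were chosen with earlier results of these data known. Adam10, Adam17 and Mif were named after their values were seen. Alternatives were a pseudocount of 0.1 FPKM, no minimum, a minimum of 5 FPKM, median centring, upper quartile scaling, fold criteria of a 25% difference and of 2-fold, and each library left out. A motif that was planned for the promoter search is not reported here. Other gene lengths and the coordinates are the authors' deposited values. R 4.3.3 with limma 3.58.1 and Python 3.11.15 with pandas 2.3.3, numpy 2.4.6, matplotlib 3.10.9 and scipy 1.17.1 were used.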

Additional observations from a re-analysis of the deposited data

Results flagged for a closer look

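The I-BET difference in cells with cytokines differed from that in cells without them by an interaction term in limma for 4 genes. The term on the log2(FPKM + 1) scale was 0.71 for Cxcl16 (adjusted p = 0.0392), 0.69 for Cx3cl1 (0.0263), 1.14 for Ccl2 (0.0386) and -1.47 for Ccl20 (0.0263), over 3 libraries per group. The Ccl20 term is void as a difference between states, since its ratio without cytokines rests on 0 fragments in IB and 1 fragment in VC and the term repeats the fall in CCIB against CCVC. The Ccl2 term depends on the 1 FPKM added, since its ratio of means was 4.88 for IB to VC and 3.59 for CCIB to CCVC. Each of the 4 calls was lost on leaving out some single libraries, as given with the values above, and their cause was not tested.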

How the results depend on the processing

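No log2 ratio that was past 1.5-fold changed its sign under the alternatives run on the group means. The count of genes 1.5-fold lower in CCVC against VC was 0 and became 1 (Cxcl12) where a 25% difference was enough. The count higher in IB against VC was 1 and became 2 with 0.1 FPKM added, 2 with median centring and 2 at a 25% difference, each time by Ccl2, and 0 at 2-fold, and the count lower in IB was 2 and became 1 with a minimum of 5 FPKM and 1 at 2-fold. In CCIB against CCVC 4 were higher and 1 was at 2-fold, and 2 were lower, with 0 at a minimum of 5 FPKM and 1 at 2-fold. The I-BET ratio differed between cytokine states for 6 genes. It did so for 5 with 0.1 FPKM added, 5 at a minimum of 5 FPKM, 8 at a 25% difference and 2 at 2-fold. Those 2 were Ccl2, whose value was 0.12 with 0.1 FPKM added, and Ccl20, whose value is void as given above. The genes called for the interaction in limma numbered 4, and 1 with 0.1 FPKM added, with a range of 0 to 3 on leaving out 1 library. Leaving out 1 library gave 6 to 7 calls in CCVC against VC, 3 to 5 in IB against VC, and 5 in each fit of CCIB against CCVC and of CCIB against IB. No paired analysis was possible because the deposited columns are group means and the recovered libraries carry no replicate number.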
